A study of Mus musculus with 16 samples.

Results

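The genes described here are 10 members of the interferon-inducible GTPase families, followed through all 4 injection groups: the guanylate-binding proteins Gbp2, Gbp3, Gbp6, Gbp7 and Gbp9 and the immunity-related GTPases Igtp, Irgm1, Irgm2, Iigp1 and Ifi47. They were chosen by name, with earlier results of these data known, and were 10 of the 55414 genes in the count table. All 10 passed the low-count filter, with 11809 genes tested. Of 24 further genes listed with these families only 4 passed it, so the members do not stand for the families as a whole. RNA came from Paneth cells sorted from the small intestine of C57BL/6J mice, with 4 biological replicates in each group. Mice were given DEX or its vehicle PBS, then tumour necrosis factor (TNF) or PBS after a gap of 1 h, and their cells were taken 3 h after the second of these injections. The groups are therefore PBS+PBS (vehicle alone), PBS+TNF (TNF without DEX), DEX+PBS (DEX without TNF) and DEX+TNF (DEX, then TNF). DEX is the usual abbreviation of the glucocorticoid dexamethasone, which the sources used here do not spell out. Doses and the sex and age of each mouse are not given in the sources used here.

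Guanylate-binding proteins (GBPs) and immunity-related GTPases (IRGs) defend cells against microbes that live inside vacuoles. Interferons induce them, in part through the transcription factor IRF1. GBPs are large GTPases that assemble on the membranes of pathogen vacuoles and of bacteria, and they open the way to the caspase and gasdermin pathway of cell death. IRGs fall into regulators (Irgm1, Irgm2 and Igtp), which sit on the cell's own membranes and keep the effectors inactive there, and effectors (such as Iigp1 and Ifi47), which load onto and damage the vacuole. In mice, loss of Irgm1 is known to disturb the granules of Paneth cells, the secretory cells of the crypt base.

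Libraries 3 and 4 of DEX+TNF stood apart from the other 2 of their group. Nfkbia encodes the NF-kB inhibitor that NF-kB itself induces, and it stood at 277, 337, 311 and 308 CPM (counts scaled to library size and normalized) in the PBS+TNF libraries. In DEX+TNF it stood at 330 and 382 CPM in libraries 1 and 2 but at 28.3 and 41.0 CPM in libraries 3 and 4, against 15.6 to 27.3 CPM in the 8 libraries without TNF. By their labels the mice of libraries 3 and 4 received TNF; whether TNF reached them was not tested, and a missed injection cannot be told apart from an effect of DEX in these values. Results that involve DEX+TNF are therefore given with and without libraries 3 and 4. They were left out because little or no TNF response was seen in them. A TNF response in the libraries that remain is therefore a description and supports nothing. In libraries 3 and 4, Casp4 still stood at 6.43 and 5.98 CPM, against at most 3.04 CPM in the 8 libraries without TNF. Gbp5 had 3 counts in each of them, against 0 without TNF, while the summed level of the members lay within its range without TNF. Irgm1 was the largest part of that sum, and some single members in library 4 lay above their ranges, as given further on. Library totals ran from 7286307 to 15832111 counts. The defining Paneth markers Lyz1, Mmp7, Itln1, Ang4, Defa24 and Defa30 were all present in every group. The summed level of the tuft cell markers Dclk1, Trpm5 and Pou2f3 was 423 CPM in DEX+TNF library 4 and 119 CPM in library 3, against 0.726 and 0.162 CPM in libraries 1 and 2 and 2.66 to 88.8 CPM in the other 12. The PBS+PBS libraries held 31.6 to 115 CPM of the 12 immune markers summed, and the PBS+TNF libraries 28.3 to 99.2 CPM. With DEX the sum was 23.4 to 68.1 CPM (DEX+PBS) or 42.6 to 96.7 CPM (DEX+TNF). Lyz2 made up most of it except in DEX+TNF library 4, where it was below Ptprc. Lyz2 went with the Paneth marker Lyz1: it stood at 114 CPM beside 222950 CPM of Lyz1 in PBS+PBS library 4, and at 21.1 CPM beside 44033 CPM in DEX+PBS library 1. Whether the Lyz2 counts came from immune cells was not tested. Ptprc, which marks all leukocytes, reached 21.0 CPM in DEX+TNF library 4 and 5.82 CPM in library 3, against 0 to 3.94 CPM elsewhere. The T cell and killer cell genes Cd3e, Cd3d, Cd8a and Gzma had no count in any library. C1qa had 145 counts (7.39 CPM) in DEX+PBS library 4, 19 counts in DEX+TNF library 4 and at most 4 elsewhere. Csf1r had 10 counts, all in DEX+TNF library 4. The remaining immune markers Cd79a, Jchain, Adgre1 and Itgam had at most 9 counts in any library.

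Of the 7 members with an entry in the promoter table, 6 carried the core of an interferon-stimulated response element. Promoters were the 250 bases before each RefSeq start site, placed on GRCm39 by exact match. Gbp2, Gbp3, Gbp7, Igtp, Irgm1, Irgm2 and Ifi47 had 8 such promoters, since Gbp3 had 2 start sites. Gbp6, Gbp9 and Iigp1 are named only. The element core, GAAANNGAA on either strand, lay in 6 of the 8, while 7.15% of 31409 mouse promoters held it. The GAS (interferon-gamma activated site) motif, TTCNNNGAA, lay in 3 of them against 7.07% of promoters, and the kappaB consensus in 0 against 7.28%. The glucocorticoid element core ACANNNTGT lay in the Ifi47 promoter alone, against 5.82% of promoters. The windows below are shown because they hold these matches. Each is 30 bases long, is written along the strand of the gene, and has element core and GAS matches in capitals. Annotated genes can start before the RefSeq start site. By the gene positions given further on, the Gbp2, Gbp3, Igtp, Irgm2 and Irgm1 windows lie inside the annotated gene. The first Gbp7 window spans the annotated gene start, and its GAS pair lies before it.
Gbp2 (chr3:142326356-142326385, plus strand): ctcttttagtTTCACTTTCactgtcttaag
Gbp3 (chr3:142265754-142265783, plus strand): acacagtTTCAGTTTCTATTTCccagatcc
Gbp7 (chr3:142236035-142236064, plus strand): tgtgtgcagtTTCAGTTTCagttctccatc
Gbp7, GAS pair (chr3:142235990-142236019, plus strand): tTTCCAGGAAaagcagaagcTTCTCAGAAa
Igtp (chr11:58090332-58090361, plus strand): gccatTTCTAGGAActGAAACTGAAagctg
Irgm2 (chr11:58105723-58105752, plus strand): gccatTTCCAGGAActGAAACTGAAagctg
Irgm1 (chr11:48762255-48762284, minus strand): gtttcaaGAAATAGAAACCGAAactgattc
In Gbp3 and Irgm1, 2 overlapping matches of the element core fill the capitals. The Igtp and Irgm2 windows were identical at 29 of 30 bases, and in both a GAS match stands just before the element core. These matches are a description of the letters, and binding was not measured.

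After TNF alone, 9 of the 10 members rose, and Iigp1 did not pass the test. An adjusted p under 0.05 in the quasi-likelihood test of edgeR was used as the call, and by it 7.15% of all tested genes rose and 5.35% fell in PBS+TNF against PBS+PBS. The median log2 fold change of the members was 3.49, against -0.03 over all tested genes. In those same 9 genes every PBS+TNF library lay above every PBS+PBS library, a separation seen in 10.8% of tested genes. Gbp6 and Gbp9 entered the test through PBS+TNF, since neither had a PBS+PBS library above the filter's limit of 0.757 CPM. Iigp1 needed PBS+TNF as well, with 2 PBS+PBS and 3 PBS+TNF libraries above that limit and 0 in both groups with DEX. The same 9 were called without the filter. Stem cell markers moved in the same comparison: all 4 listed lay below 0, and Lgr5 and Smoc2 fell by 1.58 and 0.80 on the log2 scale (edgeR adjusted p = 0.0139 and 0.0207). The enterocyte markers reached 231 CPM in PBS+PBS library 4, against 13.9 to 18.8 CPM in the other 3. The part of either in the members' values was not tested.

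Among the GBPs, Gbp2 and Gbp7 had the largest fold changes. Gbp2, a lipid-anchored GBP that coats vacuoles, stood at 0.428, 1.15, 3.58 and 0 CPM in PBS+PBS and at 126, 119, 62.4 and 61.8 CPM in PBS+TNF (ENSMUSG00000028270, chr3:142326349-142343779, plus strand, protein-coding). Its log2 fold change of 6.0 ± 1.06 (SE) was the largest of the 10 (edgeR adjusted p = 0.00230). Even the lowest library after TNF held over 10 times the level of the highest one without it. Gbp7 (ENSMUSG00000040253, chr3:142236044-142255910, plus strand) went from 1.28, 0.319, 2.03 and 1.13 CPM to 21.4, 31.5, 22.2 and 18.8 CPM, a log2 fold change of 4.28 ± 0.69 (edgeR adjusted p = 0.00128). Gbp3, its neighbour on chromosome 3 (ENSMUSG00000028268, chr3:142265731-142278979, plus strand), went from 0.514, 1.02, 1.23 and 0 CPM to 4.05, 11.1, 8.37 and 8.37 CPM, a log2 fold change of 3.42 ± 0.66 (edgeR adjusted p = 0.00334). All 3 members on chromosome 3 thus rose, to very different heights.

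Gbp6 and Gbp9, from the second GBP cluster on chromosome 5, rose from levels close to 0. Gbp6 (ENSMUSG00000104713, chr5:105418568-105443751, minus strand) stood at 0.171, 0.383, 0.214 and 0.126 CPM before and 3.85, 4.40, 3.8 and 2.28 CPM after TNF, a log2 fold change of 3.89 ± 0.78 (edgeR adjusted p = 0.00458). The Gbp9 libraries (ENSMUSG00000029298, chr5:105224332-105287452, minus strand) held 0.0857, 0.575, 0.160 and 0.377 CPM before and 2.5, 3.32, 2.25 and 2.23 CPM after, a log2 fold change of 3.07 ± 0.72 (edgeR adjusted p = 0.0101). Both groups of libraries were far apart, but the PBS+PBS values rest on 13 counts of Gbp6 and 16 of Gbp9 over 4 libraries. Of the 50-base stretches in Gbp6 transcripts, 61.6% also occur in transcripts of other genes, mostly the overlapping Gm43302, which had 0 counts. Gbp9 overlaps Gbp8 and Gbp4 on the same strand, which had 48 and 59 counts against 199 for Gbp9. How reads shared by such genes were counted is not stated, so counts of these genes are uncertain.

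Among the IRG regulators, Irgm2 changed most and Irgm1 least. Irgm1 (ENSMUSG00000046879, chr11:48752795-48763164, minus strand) was already expressed without TNF, at 23.5, 29.9, 27.9 and 17.6 CPM, and stood at 72.4, 74.1, 53.5 and 57.4 CPM with it. Its log2 fold change of 1.38 ± 0.30 was the smallest of the members (edgeR adjusted p = 0.00658). The groups nevertheless did not overlap. Irgm2 (ENSMUSG00000069874, chr11:58090444-58113615, plus strand) went from 2.91, 5.04, 5.50 and 1.26 CPM to 45.7, 55.5, 35.9 and 42.8 CPM, a log2 fold change of 3.57 ± 0.53 (edgeR adjusted p = 0.000906). Igtp, the third regulator (ENSMUSG00000078853, chr11:58089840-58098417, plus strand), stood at 1.54, 2.68, 3.20 and 1.13 CPM before and 7.13, 8.74, 5.77 and 7.53 CPM after, a log2 fold change of 1.74 ± 0.37 (edgeR adjusted p = 0.00654). The annotated Igtp and Irgm2 overlap on the same strand and share 7.45% and 8.79% of their 50-base stretches with other genes, so the division of reads between them is uncertain.

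Of the effectors, Ifi47 passed the test and Iigp1 did not, and the difference between them was not tested. Ifi47 (ENSMUSG00000078920, chr11:48967412-48987813, plus strand) rose from 1.46, 2.36, 2.51 and 9.67 CPM to 153, 42.1, 56.5 and 39.2 CPM, a log2 fold change of 4.23 ± 0.67 (edgeR adjusted p = 0.00116). Both of its extremes, 9.67 and 153 CPM, came from the libraries with the lowest TMM (trimmed mean of M-values) scaling factors, 0.503 and 0.418; their part in these values was not tested. Iigp1 (ENSMUSG00000054072, chr18:60506680-60525706, plus strand) stood at 1.46, 0.255, 1.23 and 0 CPM in PBS+PBS and at 1.16, 7.36, 2.25 and 1.49 CPM in PBS+TNF. Its log2 fold change of 2.02 ± 0.85 did not pass the test (edgeR adjusted p = 0.131), and the groups overlapped. A single PBS+TNF library, number 2, lay far above the others.

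**Figure D1:**
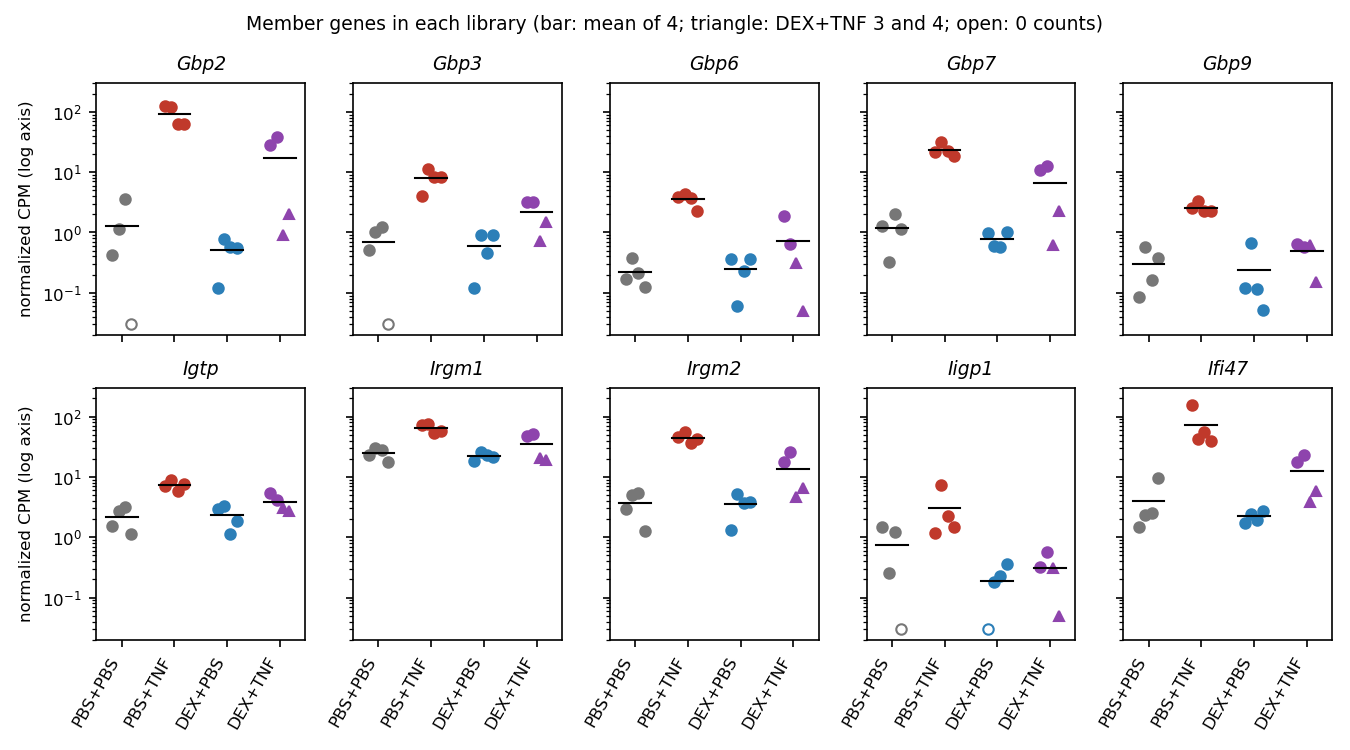
Normalized CPM (log axis) of each member gene in the 16 libraries, by group, with a bar at the mean of the 4 libraries, triangles for DEX+TNF libraries 3 and 4, and open circles for libraries without a count. In 9 of the 10 genes all PBS+TNF libraries lie above all PBS+PBS libraries, and in DEX+TNF libraries 1 and 2 lie above libraries 3 and 4 in 9 of the 10.

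Levels of different members were compared as CPM per kilobase of annotated exon. In PBS+PBS, Irgm1 led with 3.89 ± 0.86 CPM per kb (SD, n = 4), followed by Ifi47 with 1.41 ± 1.34 and Irgm2 with 0.983 ± 0.526, and Gbp6 and Gbp9 came last with 0.0329 ± 0.0165 and 0.0310 ± 0.0229. Irgm1 exceeded Ifi47 in 3 of the 4 libraries. With TNF the order changed. Gbp2 led with 36.0 ± 13.6 CPM per kb, before Ifi47 with 25.6 ± 19.1, Irgm2 with 12 ± 2.2 and Irgm1 with 10.1 ± 1.6. Neighbours among these first 4 overlapped in their libraries. Irgm1 lay wholly above Gbp7 with 3.92 ± 0.92, and Gbp7 wholly above Gbp3 with 1.88 ± 0.69. Igtp with 1.60 ± 0.27 overlapped Gbp3 and lay wholly above Gbp6 with 0.527 ± 0.134, while Gbp6, Iigp1 with 0.481 ± 0.455 and Gbp9 with 0.266 ± 0.053 overlapped in turn. In bulk samples such as these, fewer cells of a type and less RNA per cell cannot be told apart.

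DEX without TNF left no member past the test. In DEX+PBS against PBS+PBS 0 of the 10 were called by edgeR, 0 had an unadjusted p under 0.05 and 0 were called by DESeq2, with 0.00847% of tested genes called in either direction. Without adjustment 224 of 11809 tested genes passed at 0.05 in edgeR. Of the members, 8 lay below 0 and 2 above, with a median log2 fold change of -0.22 against -0.02 over all tested genes. In all 10 members the libraries of both groups overlapped. Gbp2 stood at 0.121, 0.784, 0.573 and 0.561 CPM in DEX+PBS, within the PBS+PBS range. Irgm1, at 18.1, 26, 23.0 and 21.6 CPM, also stayed inside that range. Iigp1 stood at 0, 0.181, 0.229 and 0.357 CPM, again inside the PBS+PBS range of 0 to 1.46 CPM. For the 5 members that stood below 1 CPM in every DEX+PBS library (Gbp2, Gbp3, Gbp6, Gbp9 and Iigp1), a further decrease would be hard to detect at this depth.

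In DEX+TNF against PBS+TNF, all 10 members were lower in every library, yet none passed the correction for multiple tests in edgeR. The DEX+TNF libraries lay below all PBS+TNF libraries for each of the 10, a separation in this direction seen in 2.91% of tested genes. The median log2 fold change was -2.11, against 0.03 over all tested genes. Every member had an unadjusted edgeR p under 0.05, as did 1408 of 11809 tested genes in either direction. By edgeR 0 of the 10 were called, with 0.119% of tested genes called lower, while DESeq2 called 6 of them lower, with 0.889% of tested genes: Gbp3, Gbp6, Gbp9, Irgm2, Iigp1 and Ifi47. The 4 not called by either were Gbp2, Gbp7, Igtp and Irgm1. Of the 6, Gbp6, Gbp9 and Iigp1 passed the filter only with the help of PBS+TNF libraries, where they were high. A lower level against that group is thus partly built into their selection, and their calls are a description.

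The effectors had the largest fold changes in this comparison with all libraries, while without libraries 3 and 4 Gbp9, at -2.07, exceeded Ifi47, at -1.83. Differences between members were not tested. Ifi47 stood at 17.3, 23.2, 3.88 and 5.93 CPM in DEX+TNF libraries 1 to 4, against 39.2 to 153 CPM in PBS+TNF, a log2 fold change of -2.52 ± 0.61 (edgeR adjusted p = 0.0901, DESeq2 adjusted p = 0.00271). Iigp1 stood at 0.323, 0.566, 0.306 and 0.0499 CPM, against 1.16 to 7.36 CPM, a log2 fold change of -3.34 ± 0.93 (edgeR adjusted p = 0.134, DESeq2 adjusted p = 0.0146). For Iigp1 even libraries 1 and 2 lay at the level of the libraries without TNF.

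Among the GBPs, Gbp2 stood at 28.3, 37.7, 0.919 and 1.99 CPM in DEX+TNF, against 61.8 to 126 CPM in PBS+TNF, a log2 fold change of -2.42 ± 0.87 (edgeR adjusted p = 0.262). Gbp7 stood at 11.0, 12.5, 0.612 and 2.29 CPM, a log2 fold change of -1.83 ± 0.60 (edgeR adjusted p = 0.204). In both genes libraries 1 and 2 lay between the PBS+TNF libraries and the libraries without TNF, and library 3 lay within the range of the latter. Gbp3 held 3.23, 3.23, 0.715 and 1.5 CPM, Gbp6 held 1.86, 0.647, 0.306 and 0.0499 CPM, and Gbp9 held 0.645, 0.566, 0.612 and 0.150 CPM. Their log2 fold changes were -1.88 ± 0.60, -2.33 ± 0.70 and -2.40 ± 0.69, with edgeR adjusted p of 0.195, 0.170 and 0.143. Gbp9 showed no gap between library 3 and libraries 1 and 2, at 24 counts over the group, and Iigp1 hardly any, with 3 counts in library 3 and 4 in library 1.

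The regulators had the smallest fold changes with all libraries, while without libraries 3 and 4 Gbp7, at -1.0, had a slightly smaller one than Irgm2, at -1.05. Irgm1 stood at 47.5, 50.6, 20.5 and 19.3 CPM in DEX+TNF, against 53.5 to 74.1 CPM in PBS+TNF, a log2 fold change of -0.90 ± 0.29 (edgeR adjusted p = 0.204). Irgm2 stood at 17.8, 25.5, 4.70 and 6.48 CPM, against 35.9 to 55.5 CPM, a log2 fold change of -1.72 ± 0.48 (edgeR adjusted p = 0.140). Igtp, at 5.40, 4.20, 3.06 and 2.69 CPM, had a log2 fold change of -0.93 ± 0.36 (edgeR adjusted p = 0.315). Its highest DEX+TNF library came close to its lowest PBS+TNF library, at 5.77 CPM.

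Without DEX+TNF libraries 3 and 4 the members were still all lower than in PBS+TNF, by a median log2 fold change of -1.40. Of the 10, 7 had an unadjusted p under 0.05, a limit for which the share over all tested genes was not counted. Again 0 members were called, with 0% of the 12223 genes then tested called lower. The smallest edgeR adjusted p was 0.422, for Ifi47, whose log2 fold change was -1.83 ± 0.65. For Irgm1 the log2 fold change shrank to -0.39 ± 0.24 (edgeR adjusted p = 0.577).

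The values for TNF after DEX depended on libraries 3 and 4. With all libraries, all 10 members lay higher in DEX+TNF than in DEX+PBS, with a median log2 fold change of 1.61 against 0.03 over all tested genes. By edgeR 0 of them were called, with 0.322% of tested genes called higher. An unadjusted p under 0.05 was seen in 6 members, and in 1227 of 11809 tested genes in either direction. DESeq2 called 4, with 1.85% of tested genes: Gbp2, Gbp7, Irgm2 and Ifi47. Every DEX+TNF library lay above every DEX+PBS library in Gbp2 and Ifi47, against 2.06% of tested genes. Gbp2 had a log2 fold change of 4.96 ± 1.09 (edgeR adjusted p = 0.0734) and Ifi47 one of 2.47 ± 0.64 (edgeR adjusted p = 0.123).

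Without libraries 3 and 4, chosen for showing little or none of this response, 7 of the 10 were called higher. The share of tested genes was 7.20%, and the result is given as a description. These were Gbp2, Gbp3, Gbp6, Gbp7, Irgm1, Irgm2 and Ifi47. Gbp2 then had a log2 fold change of 5.89 ± 0.73, Gbp7 of 3.86 ± 0.43 and Irgm1 of 1.15 ± 0.23. Gbp9, Igtp and Iigp1 had log2 fold changes of 1.23 ± 0.84, 1.05 ± 0.42 and 1.04 ± 1.14. Markers of several cell types separate the same libraries. Besides the tuft markers given above, enterocyte markers summed to 37.1 and 267 CPM in libraries 3 and 4 against 4.19 and 5.17 CPM in libraries 1 and 2. Stem cell markers summed to 440 and 1219 CPM against 289 and 252 CPM, most of it Olfm4. Of these, Smoc2 went the other way, at 58.3 and 65.2 CPM against 67.6 and 71.7 CPM, and Lgr5 did not separate library 3. The stem cell sum of library 3 lay within the 253 to 826 CPM of the other groups. Enteroendocrine markers summed to 15.9 and 6.48 CPM against 0.081 and 0 CPM. Goblet markers went the other way as a sum, at 2566 and 2259 CPM against 3870 and 5853 CPM. Among them Muc2 was lower in libraries 3 and 4, Clca1 was higher, and Tff3 and Fcgbp did not separate the libraries. The part of all these markers in the members' values was not tested. Library 3 or 4 left out alone gave 4 called members each time.

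**Figure D2:**
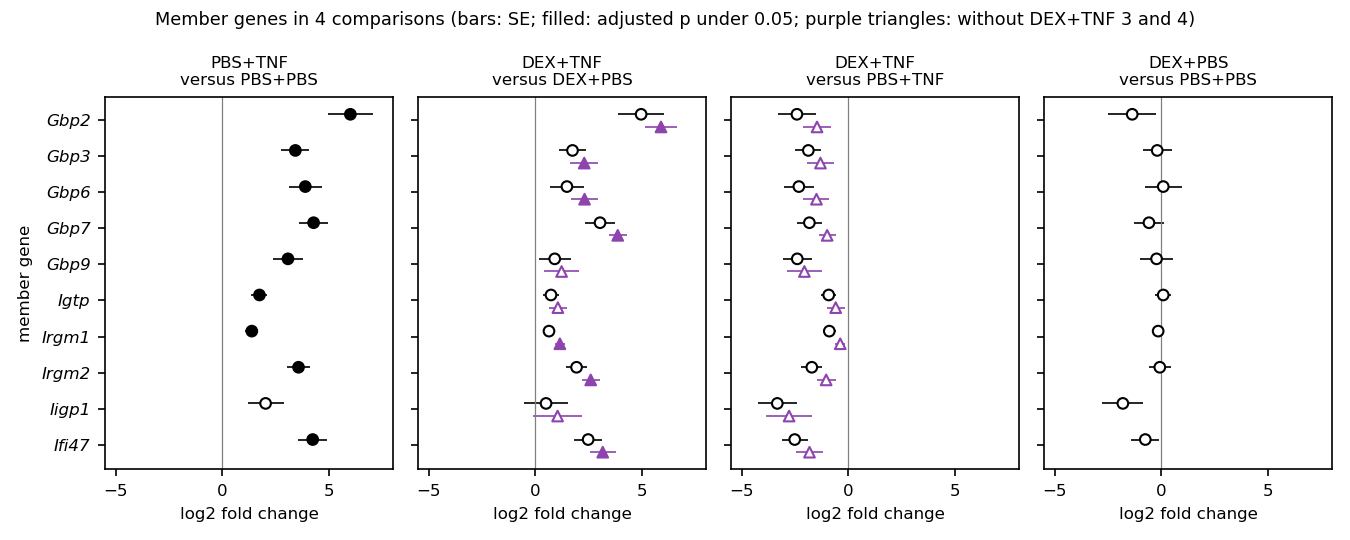
Log2 fold change of each member gene in 4 comparisons, with bars of 1 SE. Circles use all 16 libraries, purple triangles leave out DEX+TNF libraries 3 and 4, and filled symbols have an edgeR adjusted p under 0.05. All members lie above 0 after TNF with or without DEX and below 0 for DEX+TNF against PBS+TNF, where no symbol is filled.

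Whether the TNF effect itself differed after DEX was tested as the interaction of the injections. All 10 members had a smaller TNF effect after DEX, with a median difference in log2 fold change of -1.58 against 0.05 over all tested genes. By edgeR 0 of them were called, as was 0% of all tested genes, and DESeq2 called 0 of them. Irgm2, with a difference of -1.64 ± 0.70 (edgeR adjusted p = 0.884), and Gbp6, with -2.41 ± 1.11 (edgeR adjusted p = 0.904), passed only without adjustment, at 0.05. At that limit 642 of 11809 tested genes passed. Without libraries 3 and 4 the median was -0.98, 0 were called and 0 had an unadjusted p under 0.05. For Gbp2 the difference then was -0.09 ± 1.16. A smaller TNF effect was thus measured for all members without passing the test for any.

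Of 24 further genes of these families, 22 were in the table and 4 passed the filter. Gbp5, a GBP tied to inflammasome assembly, had 0 counts in all 8 libraries without TNF and 778 counts in PBS+TNF, at 13.1, 20.9, 7.80 and 12.5 CPM. Against the floor of 3 counts over the PBS+PBS group it was at least 249-fold higher (edgeR adjusted p = 0.00261). In DEX+TNF it stood at 5.40, 5.09, 0.306 and 0.150 CPM, at least 44.1-fold above the same floor over DEX+PBS. Gm12250, which encodes the effector Irgb10, rose with TNF by a log2 fold change of 4.05 ± 0.79 (edgeR adjusted p = 0.00372), and Gm5431 by 3.90 ± 0.82 (edgeR adjusted p = 0.00584). Gbp5, Gm12250 and Gm5431 passed the filter through PBS+TNF, with 4 libraries above its limit there and 0, 1 and 0 in PBS+PBS. Their rise is thus partly built into their selection and is given as a description. Irgq, at 7.54 to 14.9 CPM in PBS+PBS and 12.7 to 25.7 CPM in PBS+TNF, did not pass (edgeR adjusted p = 0.223).

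The other 18 were too low to test. They were Gbp2b, Gbp4, Gbp8, Gbp10, Gbp11, Tgtp1, Tgtp2, Irgc, Iigp1c, F830016B08Rik, Gm12185, Gm12187, Gm4841, Mx1, Mx2, Gvin1, Gvin2 and Gvin3. Of these, 6 had no count in any library, and the most counted, Tgtp2, had 74 counts over 16 libraries. Iigp1b and Gm4951 were not matched by symbol. Tgtp1 and Tgtp2 are near-identical copies, so reads that match both may not have been counted. Of the 18, 12 had counts, and Gbp4, Gbp10, Gbp11, Tgtp1 and Tgtp2 had counts in all 4 PBS+TNF libraries. The Mx and Gvin genes are relatives outside both families.

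Part of the genes listed upstream of the members rose after TNF, where 7.15% of all tested genes did. Of 11 interferon and TNF receptors and Janus kinases, all tested, 6 rose and 0 fell, with a median log2 fold change of 1.52 against -0.03 over all tested genes. They were Tnfrsf1b, the second TNF receptor, with 3.38 ± 0.60, both chains of the interferon-gamma receptor, Ifngr2 with 2.24 ± 0.35 and Ifngr1 with 1.52 ± 0.29, and the Ifnar1, Jak2 and Ifnlr1 genes. Of 16 transcription factors 15 were tested, and 10 rose. Relb and Nfkb2 of the NF-kB family led with log2 fold changes of 3.64 ± 0.66 and 3.27 ± 0.64, before Irf1 with 2.24 ± 0.39 and Rela with 2.17 ± 0.52. Of 7 feedback inhibitors, 6 rose: Socs3 by 4.36 ± 0.61, Tnfaip3 by 4.05 ± 0.87, Nfkbia by 3.92 ± 0.63, Socs1 by 3.44 ± 0.70, and Usp18 and Ptpn2. Socs1 entered the test through PBS+TNF, with 20 to 58 counts per library there and at most 8 in any other library. The interferons themselves were not seen. Ifng, Ifnb1 and 7 others had no count in any library, and Ifnl3 had 4 counts in all.

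Lists of genes that work with or after the GTPases are given side by side, with no test between lists. None of the 10 autophagy conjugation genes that place IRGs and GBPs on membranes was called by edgeR or by DESeq2. By edgeR 12.5% of all tested genes were called in either direction. Without adjustment 2 of the 10 passed at 0.05 in edgeR, as did 3116 of 11809 tested genes. The median log2 fold change of the autophagy genes was 0.08. Among 9 ubiquitin ligases and receptors that mark opened vacuoles, 4 rose and 2 fell. Rnf213 rose by 2.42 ± 0.49, Sqstm1 by 1.92 ± 0.42, Trim21 by 1.23 ± 0.30 and Lgals8 by 0.97 ± 0.23, while Calcoco1 fell by 1.01 ± 0.31 and Nbr1 by 0.69 ± 0.20 on the log2 scale. Of 9 inflammasome genes downstream of GBPs 6 were tested and 4 rose. Casp4, the caspase that senses bacterial lipopolysaccharide, went from 2.48, 2.49, 3.04 and 2.76 CPM to 191, 86.7, 89.9 and 59.7 CPM (log2 fold change 5.30 ± 0.71, edgeR adjusted p = 0.000472). Gsdmd, the pore-forming gasdermin that caspases cleave, rose by 3.11 ± 0.71, Casp1 by 1.55 ± 0.44 and Casp8 by 1.12 ± 0.21. Nlrp3 and Il1b had no count in any library. The calls of Calcoco1 and Casp1 were lost when any of several single libraries was left out: without PBS+PBS library 3, for example, the edgeR adjusted p was 0.151 and 0.0776.

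**Figure D3:**
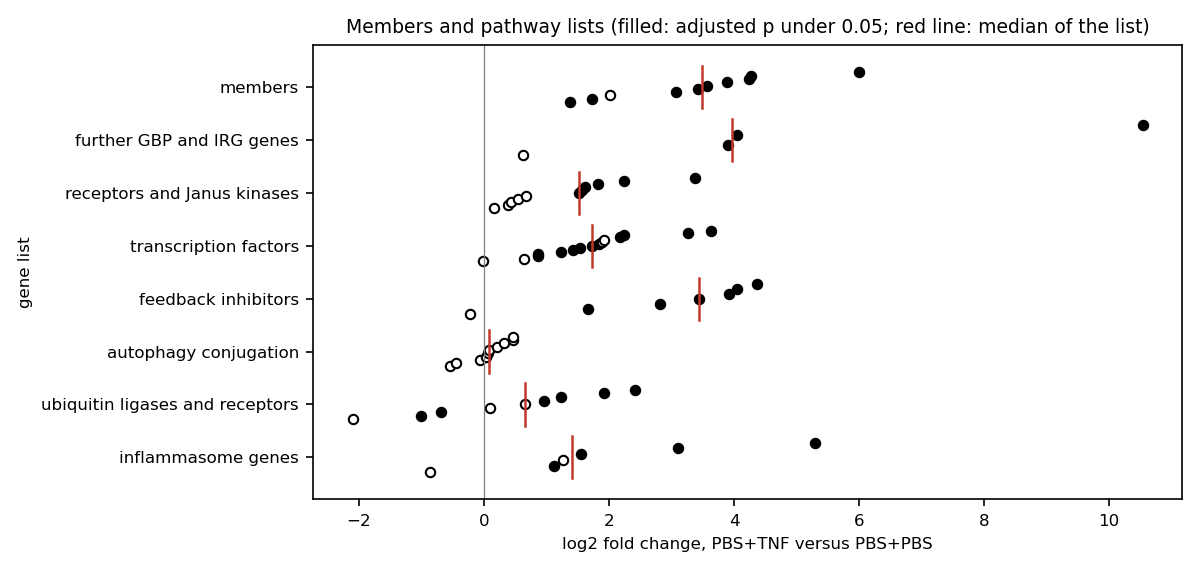
Log2 fold change of each tested gene in PBS+TNF against PBS+PBS, by list, with the median of each list as a red line and filled circles at an edgeR adjusted p under 0.05. The members and the feedback inhibitors have medians of 3.49 and 3.44, and the 10 autophagy conjugation genes lie around 0 with no filled circle.

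Under DEX and TNF together, the members and the genes Nfkbia, Tnfaip3 and Relb took different positions within libraries 1 and 2, while other feedback inhibitors lay low like the members. Relb stood at 114 and 134 CPM there, above its PBS+TNF range of 62.8 to 101 CPM, and Tnfaip3 at 115 and 110 CPM, above 58.9 to 86.0 CPM. Irf1 stood at 91.3 and 101 CPM, just below its PBS+TNF range of 107 to 120 CPM. Socs3, a target of STAT3 signalling that restrains it, stood at 43.9 and 50.2 CPM, well below its range of 109 to 182 CPM. Socs1, which restrains interferon signalling, stood at 0.565 and 0.323 CPM against 1.45 to 3.85 CPM. Usp18, at 3.15 and 5.42 CPM against 9.59 to 13.3 CPM, and Ptpn2, at 16.1 and 15.4 CPM against 20.6 to 33.9 CPM, also lay below their ranges. The summed level of the members was 133 and 159 CPM, against 242 to 437 CPM. In the same libraries Nfkbia lay within or above its PBS+TNF range, Relb and Tnfaip3 lay above theirs, and all 10 members lay below theirs. Libraries 1 and 2 were set apart by their TNF response, read first from Nfkbia. High Nfkbia was thus part of that choice, as high Relb and Tnfaip3 may be, and the contrast with the members is a description. In libraries 3 and 4, the member sum stood at 35.6 and 40.4 CPM, within the 25.7 to 47.5 CPM of the libraries without TNF. Relb, at 5.61 CPM in library 3, also lay within its range without TNF of 4.77 to 9.56 CPM, and at 18.5 CPM in library 4 it lay above it. Over all 4 libraries DEX+TNF differed from PBS+TNF by a log2 fold change of -0.66 ± 0.56 for Nfkbia, -0.95 ± 0.37 for Irf1 and -3.07 ± 0.68 for Socs1, with edgeR adjusted p of 0.693, 0.318 and 0.0641. Socs1 passed the filter only through PBS+TNF, so its lower level against that group is a description. Differences between these genes were not tested against each other.

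**Figure D4:**
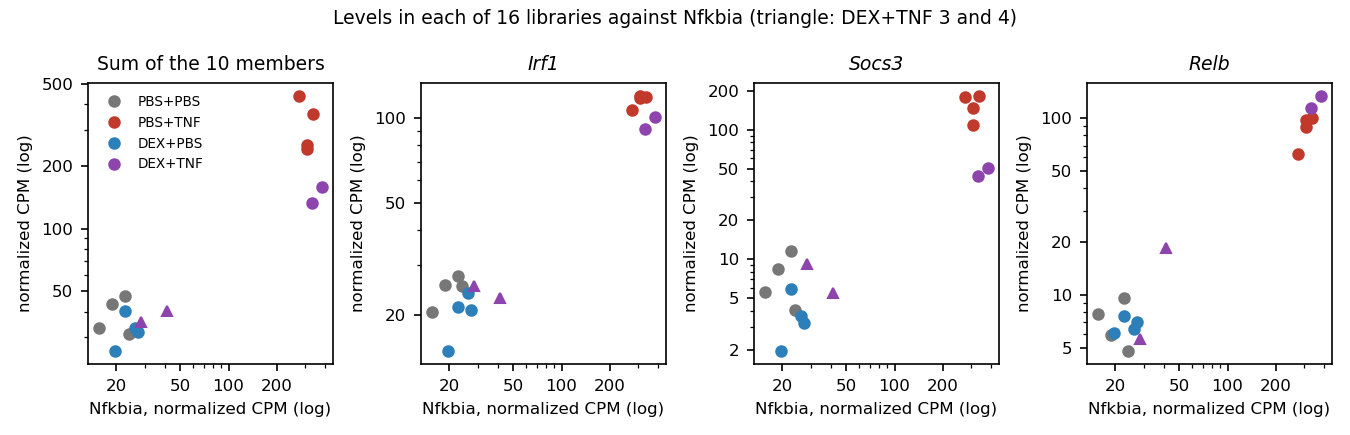
Normalized CPM of the 10 members summed, of Irf1, of Socs3 and of Relb in each of 16 libraries against Nfkbia (log axes). DEX+TNF libraries 1 and 2 (purple circles) lie below the PBS+TNF libraries in the first 3 panels and above them for Relb, and libraries 3 and 4 (triangles) lie with or near the libraries without TNF.

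The members varied together across the 16 libraries. Pearson's r of log2 CPM between 2 members ran from 0.53 (Iigp1 with Ifi47) to 0.99 (Gbp2 with Irgm2), with a median of 0.85 over 45 pairs. These libraries share the TNF split, which sets much of such a correlation. Iigp1 followed the mean of the other members least, with r = 0.73, and Gbp2 and Irgm2 most, with 0.98 each. Apart from the 10 members, 7812 genes averaging 5 CPM or more were ranked by their r with the mean log2 CPM of the members. Gbp5, with r = 0.97, averaged less than 5 CPM and was not ranked. Socs3 came first with r = 0.99, followed by Gclc, the rate-limiting enzyme of glutathione synthesis, with 0.99, and Rel, an NF-kB subunit, with 0.97. Sbno2, Elovl6, Trim26, Pim1, 4930523C07Rik, Mpzl1 and Irf1 completed the first 10, all with r of 0.97.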

How the data were processed

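Bulk RNA-seq libraries of sorted Paneth cells were analysed from the raw read counts per Ensembl gene that the authors deposited. Per the labels, stranded mRNA libraries were aligned to mm39 (GRCm39) with STAR 2.7.10a. The study's methods give GENCODE M30. The counting program, its strand setting and its treatment of reads matching several genes are not stated, so counts of overlapping or near-identical genes are uncertain. The study states that sorted cells were nearly pure; marker levels are given with the results. Symbols, positions and exon lengths came from GENCODE M39 on GRCm39, which held 54749 of 55414 identifiers. Promoter sequences came from RefSeq (table on GRCm38.p6) and were placed on GRCm39 by exact match.

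Genes were kept with filterByExpr (at least 10 counts at the median library size, 0.757 CPM, in 4 libraries), scaled with TMM factors (0.418 to 1.50) and tested in R 4.3.3 with the robust quasi-likelihood method of edgeR 4.0.16 over all 16 libraries, with a mean per group, 5 contrasts and Benjamini-Hochberg adjustment over all tested genes. The SE is the log2 fold change divided by the square root of F. Log2 CPM used a prior count of 2. The route was tested on simulated data. The study names DESeq2 without a formula; DESeq2 1.42.0 was an alternative, with other scalings and filters, a replicate block, each library left out, and libraries left out after values were seen. All 24 pairs of libraries within groups differed by more than sampling noise. Counts cover 7286307 to 15832111 reads per library without molecular identifiers, so counting limits cover counting error only.

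All 10 members were named in each comparison. From each pathway list, up to 4 called genes with the largest change were named, besides Irf1, Socs1 and Nfkbia (another regulator named by the rule is not reported here), all listed family genes and the 10 genes most like the members; further list genes were named after their values were seen. The members and lists were chosen with earlier results of these data known.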

Additional observations from a re-analysis of the deposited data

Results flagged for a closer look

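Of 40 groups of 4 libraries (10 members in 4 groups), 4 held a library whose gap to its nearest neighbour took up more of the group's range than Dixon's test allows, and chance flags about 1 in 20 groups. Ifi47 stood at 9.67 CPM in PBS+PBS replicate 4, with the next library at 2.51 CPM. It stood at 153 CPM in PBS+TNF replicate 1, with the next at 56.5 CPM. These were the libraries with the lowest scaling factors, 0.503 and 0.418, and the most counts in alpha-defensin (Defa) genes, 54.5% and 59.3%; the part of either in the values was not tested. Without both libraries, Ifi47 was still called higher after TNF. Gbp9 stood at 0.663 CPM in DEX+PBS replicate 2, with the next at 0.121 CPM, and at 0.150 CPM in DEX+TNF replicate 4, with the next at 0.566 CPM.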

How the results depend on the processing

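The number of called members in PBS+TNF against PBS+PBS was 9 in all alternatives but one: a mean of at least 5 CPM left 5 members to test, and all 5 were called. It was 9 whichever library was left out. In DEX+PBS against PBS+PBS and in the interaction it was 0 throughout. In DEX+TNF against PBS+TNF the count of 0 became 6 with DESeq2, and 0 to 2 with one library left out: 2 without DEX+TNF replicate 2 (Irgm2, Ifi47), 1 without DEX+TNF replicate 1 (Gbp6) and 1 without PBS+PBS replicate 4 (Ifi47). In DEX+TNF against DEX+PBS the count of 0 became 4 with DESeq2, 7 without DEX+TNF libraries 3 and 4, and 0 to 4 with one library left out, the 4 coming without DEX+TNF replicate 3 or 4. The cause of the differences between edgeR and DESeq2 was not tested. All genes called in DEX+TNF against PBS+TNF numbered 40 in the main result, 274 with DESeq2, 16 with the block, 8 without the 2 libraries of the lowest TMM factors, and 0 without libraries 3 and 4 or with only the groups compared. With one library left out they numbered 0 to 102, with 0 or 1 without any PBS+TNF library or without DEX+TNF replicate 3 or 4. In DEX+TNF against DEX+PBS they numbered 40, and 259 with DESeq2, 6 without the filter, 0 with the block or only the groups compared, 1 without the lowest TMM factors and 1286 without libraries 3 and 4. With one library left out they numbered 362 without DEX+TNF replicate 3, 230 without replicate 4 and 0 in the other 14 cases.

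These values changed sign: Nfkbia in DEX+TNF against PBS+TNF, at 0.21 (log2) without libraries 3 and 4, and Iigp1 in DEX+TNF against DEX+PBS, at -0.0013 without DEX+TNF replicate 2 (-0.0013 to 1.02 with one library left out). Upper-quartile scaling moved the median of all genes after TNF from -0.03 to -0.15 and that of the members from 3.49 to 3.38. In the fit with a replicate block the counts were 9, 0, 0, 0 and 0, with no call of a member changed. Replicate numbers were not used as pairs in the main fit. Deviations of same-numbered libraries correlated at -0.37 to 0.50 (median 0.11), and those of other-numbered libraries at -0.56 to 0.49 (median -0.06). Of 16 libraries, 7 correlated best with their own number. These values do not settle whether the numbers mark a pairing. Fewer than 20 counts of Gbp6 and Gbp9 in PBS+PBS limit their fold changes.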
